A study of Mus musculus with 2 samples.

Results

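Chromatin immunoprecipitation followed by sequencing was used to map Sap130 binding in E12.5 embryonic hearts of the mouse strain C57BL/6. The series held 1 library pulled down with a rabbit antibody against Sap130 and 1 library of input DNA made without antibody. The sources used here do not say whether hearts of several embryos were pooled. The study set out to identify Sap130 target genes. The 10 genes described here encode core members of the Polycomb repressive complexes PRC1 and PRC2: Ezh1, Ezh2, Eed, Suz12, Jarid2, Bmi1, Ring1, Rnf2, Cbx2 and Cbx7. They are 10 of 21779 protein-coding genes, and were chosen by name, with earlier results of these data known. The shares of all protein-coding genes given below are therefore set beside a chosen list. Their summits are those inside the RefSeq gene (build GRCm38.p6) or within 10000 bp of it, 26 of the 14886 summits in the authors' list. A summit is the single base at which a called peak was highest. Each carries a score set by the authors' peak caller, a −log10 p or q against the input. Over the whole list its median was 33.3 and its quartiles were 13.9 and 65.2. Deeper sequencing raises this score, as does stronger enrichment, so it is used below only to order summits within the list. With 1 ChIP library there was no replicate, so no value below carries an error, and differences between genes could not be tested. Read depth was unknown. Whole hearts hold several cell types, and a summit does not say in which of them Sap130 was bound. A peak list holds no expression, so the tissue label was not checked against marker genes.

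Polycomb proteins keep developmental genes silent. PRC2 methylates a lysine in the tail of histone H3, through the catalytic subunits Ezh1 or Ezh2 held by Eed and Suz12, with Jarid2 as an accessory subunit that helps bring it to chromatin. PRC1 ubiquitinates histone H2A through the RING proteins Ring1 or Rnf2, with a PCGF partner such as Bmi1, and Cbx proteins, Cbx2 and Cbx7 among them, bind the methylated H3 tail. In the mouse heart, Ezh2 is known to hold down genes of other lineages and of earlier stages during development. Sap130 belongs to the Sin3 complex, a separate corepressor that carries histone deacetylases.

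All 10 Polycomb genes had at least 1 Sap130 summit in reach, against 60.1% of all protein-coding genes. The median length was 33472 bp for the 10 genes, against 17217 bp for all protein-coding genes, and a longer gene has a wider reach. Ring1, Cbx2 and Bmi1, with 3889, 8257 and 9612 bp, were shorter than that overall median. Of the 10 genes, 8 had 2 or more summits, against 28.6% of all protein-coding genes, while Ezh1 and Rnf2 had 1 each. At Ring1 and Cbx2, all but the highest-scoring summit lay at or in neighbouring genes. The share of all protein-coding genes counts such summits too. The highest score in reach was at or above the list's median in 9 of the 10, all but Cbx7, against 41.9% of all protein-coding genes. The scores themselves were near those of other bound genes: the median of the highest scores was 56.5 for the 10 genes and 54.7 for the 13080 protein-coding genes with a summit in reach (quartiles 27.4 and 85.6). From high to low, the highest scores were 95.2 at Ring1, 94.9 at Cbx2, 69.3 at Suz12, 67.8 at Ezh1, 58.3 in reach of Bmi1, 54.7 at Ezh2, 49.0 at Eed, 48.9 at Jarid2, 45.2 at Rnf2 and 19.5 at Cbx7. With no replicate, neighbours in this order cannot be ranked.

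The summits lay mainly at the starts of the Polycomb genes. Listed starts were at hand for 9 of the 10 genes, all but Cbx2, and each of the 9 had a summit within 1000 bp of a start, against 52.2% of the 17492 protein-coding genes with a listed start. Of the 26 summits, 15 lay within 1000 bp of a start of the Polycomb gene itself and 1 within 1000 bp of the left boundary of Cbx2. Another 3 lay deeper inside the gene, in Jarid2 and Cbx7, and 7 lay outside, at or in genes next to Bmi1, Ring1 and Cbx2. How many of all 14886 summits lay this near a start was not counted, so these counts show no trait particular to the Polycomb genes. The highest-scoring summit near a start was downstream of it, inside the gene, in 7 of 9 genes, and upstream of its nearest start at Ring1 and Jarid2. In all protein-coding genes with a summit near a start, it was downstream in 82.6%. Over all of these genes, with upstream distances taken as negative, the median was 179 bp into the gene (quartiles 104 and 244 bp). The median over the 9 Polycomb genes, taken the same way, was 239 bp.

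**Figure D1:**
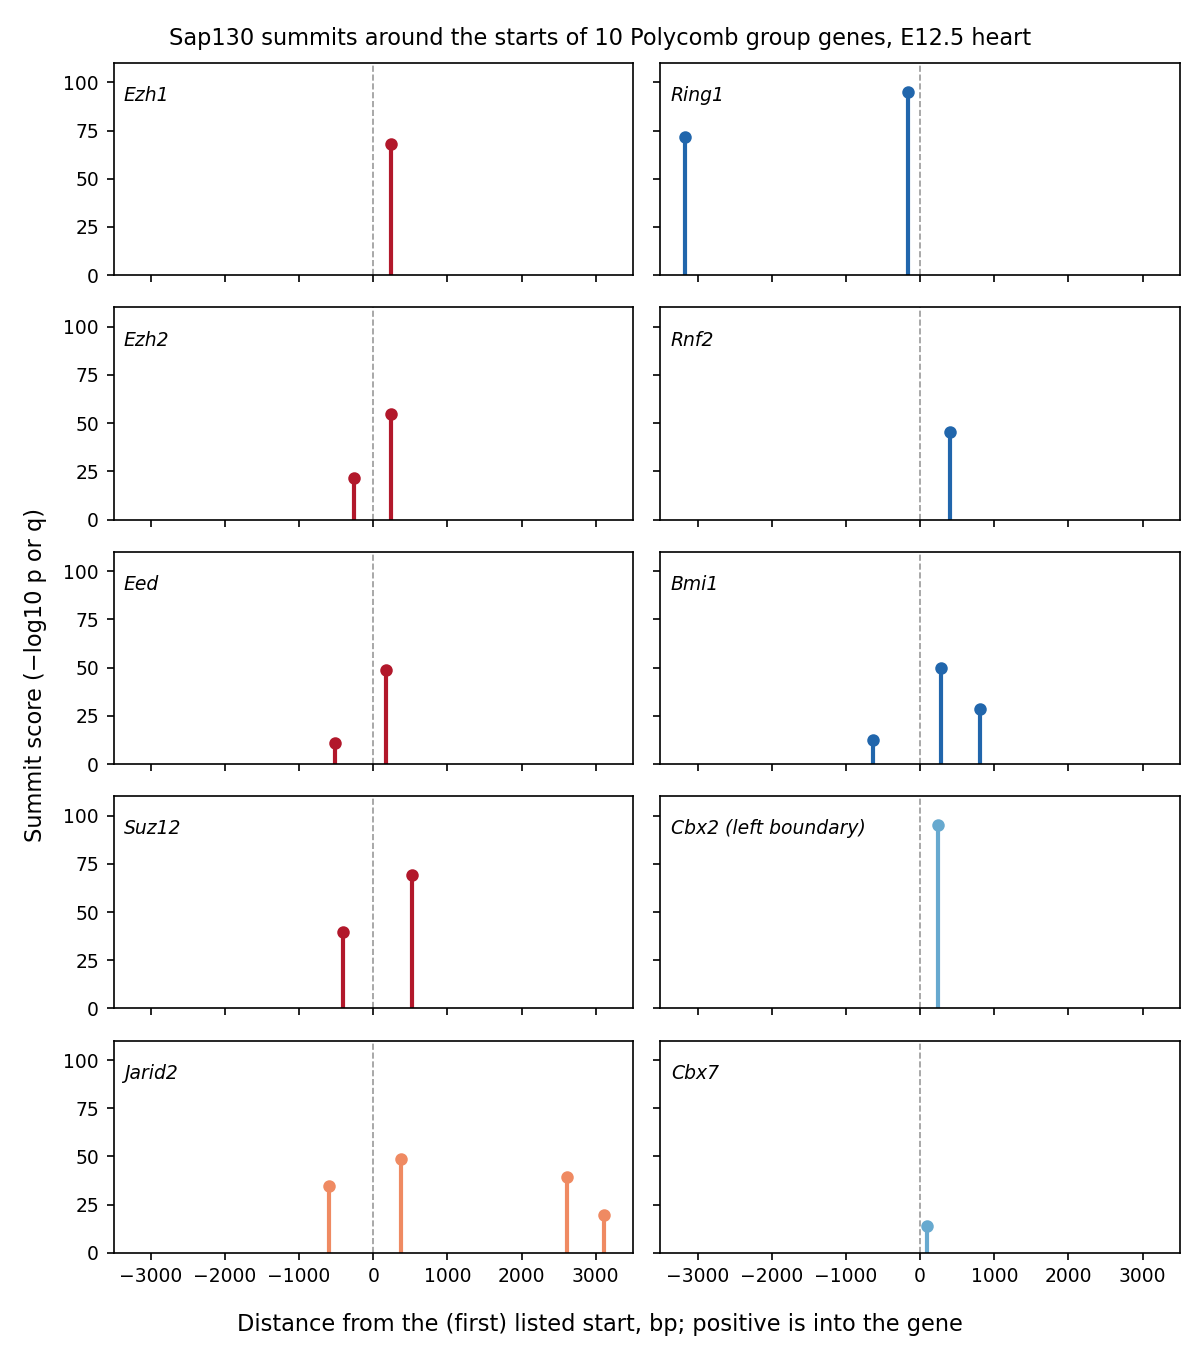
Position of Sap130 summits (x, distance in bp from the first listed start, positive into the gene; for Cbx2 from its left boundary) and their score (y, −log10 p or q) for each of the 10 genes, within 3500 bp. Red marks core PRC2, orange the PRC2 accessory gene Jarid2, dark blue the RING and PCGF genes and light blue the Cbx genes. Ezh2, Eed, Suz12, Jarid2 and Bmi1 have summits on both sides of the start, and Ring1 has its highest summit, 95.2, at 160 bp before the start.

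A pair of summits astride the start was a frequent layout. Summits on both sides of a start, each within 1000 bp, were found at Ezh2, Eed, Suz12, Jarid2 and Bmi1, 5 of the 9 genes, against 8.48% of protein-coding genes with a listed start and 16.2% of those with a summit within 1000 bp of a start. The members of the pair were 496 bp apart at Ezh2, 682 bp at Eed, 922 bp at Suz12, 925 bp at Bmi1 and 977 bp at Jarid2. In all 5 the downstream summit of the pair had the higher score, with Jarid2 taken from its first start. How far the authors' peak caller split single broad regions into several summits was not tested. At 496 bp apart, the Ezh2 pair would become a single summit if summits within 500 bp were merged. The pairs were not recounted that way.

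Promoter sequences from RefSeq (GRCm38.p6) were matched for 9 of the 10 genes. The 250 bases before the start are shown for 7 starts, 5′ to 3′ along the gene, with matches to the motifs described below, on either strand, in capitals. Ring1 (chr17:34024681-34024930, minus strand) and the second start of Jarid2 (chr13:44731021-44731270, plus strand) are shown because a Sap130 summit falls within these bases. The paralogs Ezh1 (chr11:101226464-101226713, minus) and Ezh2 (chr6:47595031-47595280, minus) are shown side by side. Suz12 (chr11:79992856-79993105, plus) has the highest CpG ratio of the 9 genes, Bmi1 (chr2:18676768-18677017, plus) the most GC boxes and Cbx7 (chr15:79932647-79932896, minus) the lowest summit score.
Ring1: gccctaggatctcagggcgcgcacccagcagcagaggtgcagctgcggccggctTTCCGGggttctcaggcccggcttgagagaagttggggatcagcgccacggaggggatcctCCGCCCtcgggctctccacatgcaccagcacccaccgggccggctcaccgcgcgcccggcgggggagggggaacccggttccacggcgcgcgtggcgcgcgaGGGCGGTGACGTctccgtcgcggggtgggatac
Jarid2, second start: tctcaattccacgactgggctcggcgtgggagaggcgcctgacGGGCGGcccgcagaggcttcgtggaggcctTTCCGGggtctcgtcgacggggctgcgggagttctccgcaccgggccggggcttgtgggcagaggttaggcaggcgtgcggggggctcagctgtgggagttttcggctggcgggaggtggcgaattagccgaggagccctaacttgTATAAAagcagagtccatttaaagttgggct
Ezh1: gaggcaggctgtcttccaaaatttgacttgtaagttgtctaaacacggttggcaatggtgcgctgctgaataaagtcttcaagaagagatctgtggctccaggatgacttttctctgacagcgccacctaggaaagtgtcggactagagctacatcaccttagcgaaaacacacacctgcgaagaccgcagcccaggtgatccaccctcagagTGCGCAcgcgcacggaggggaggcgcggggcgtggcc
Ezh2: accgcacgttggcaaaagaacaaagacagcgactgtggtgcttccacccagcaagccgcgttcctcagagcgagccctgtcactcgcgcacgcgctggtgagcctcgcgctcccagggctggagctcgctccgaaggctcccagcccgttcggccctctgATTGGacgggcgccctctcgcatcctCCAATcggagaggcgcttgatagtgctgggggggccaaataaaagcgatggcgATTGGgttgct
Suz12: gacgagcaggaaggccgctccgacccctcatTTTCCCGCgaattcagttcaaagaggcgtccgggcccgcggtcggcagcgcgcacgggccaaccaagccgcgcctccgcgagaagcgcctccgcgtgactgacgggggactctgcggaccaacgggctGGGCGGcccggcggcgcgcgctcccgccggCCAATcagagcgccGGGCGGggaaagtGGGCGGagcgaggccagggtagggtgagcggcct
Bmi1: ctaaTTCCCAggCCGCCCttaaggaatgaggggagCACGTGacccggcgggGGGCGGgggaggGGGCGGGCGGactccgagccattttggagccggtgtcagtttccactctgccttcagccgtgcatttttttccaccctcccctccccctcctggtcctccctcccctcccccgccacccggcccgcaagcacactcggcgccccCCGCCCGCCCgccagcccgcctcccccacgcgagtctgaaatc
Cbx7: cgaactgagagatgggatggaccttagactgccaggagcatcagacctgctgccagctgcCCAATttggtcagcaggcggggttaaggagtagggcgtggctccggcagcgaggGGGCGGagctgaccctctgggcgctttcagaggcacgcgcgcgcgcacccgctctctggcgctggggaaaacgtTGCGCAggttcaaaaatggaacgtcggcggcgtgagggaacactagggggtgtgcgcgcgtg

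The catalytic subunits of PRC2 are encoded by the paralogs Ezh1 and Ezh2, of which Ezh2 is the form of dividing cells. Ezh1 (chromosome 11, 101191115 to 101226463, minus strand) had 1 summit, at 101226224, 239 bp into the gene, with a score of 67.8, rank 3472 of 14886. Ezh2 (chromosome 6, 47530274 to 47595270, minus strand) had its higher summit at 47594790, 240 bp downstream of the listed start, with a score of 54.7, rank 4791. The paralogs thus had their main summit at nearly the same distance from the listed start. Both distances lay within the quartiles of 104 and 244 bp for all protein-coding genes with a summit near a start. The record of Ezh2 runs on past its listed start, and its main summit lay 480 bp inside that boundary. Ezh2 had a further summit of score 21.8 at 47595286, 256 bp before the start and 16 bp outside the gene record, whereas Ezh1 had no other summit in reach. That outer summit lay 77 bp inside F830010H11Rik, a long noncoding RNA gene whose record begins within Ezh2's own, so it cannot be given to Ezh2 alone.

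Eed and Suz12 encode the subunits that complete the PRC2 core. Eed, whose protein binds the methylated H3 tail and stimulates the enzyme (chromosome 7, 89954654 to 89980976, minus strand), had a summit of score 49.0 at 89980803, 173 bp into the gene. A weaker one of 10.7 stood 509 bp before the start, at rank 12141. Suz12, a scaffold needed for PRC2 activity (chromosome 11, 79993106 to 80034123, plus strand), had 69.3 at 519 bp into the gene and 39.8 at 403 bp before the start. The Suz12 pair was the stronger on both sides: its upstream summit was the only upstream one of the core PRC2 genes above the list's median of 33.3. No other protein-coding gene lay within 10000 bp of any summit of Ezh1, Ezh2, Eed or Suz12.

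Jarid2, the accessory subunit of PRC2 and a factor known to be needed for heart development in the mouse (chromosome 13, 44730774 to 44921643, plus strand), had 4 summits around its own starts. It has listed starts at 44730774 and 44731271. Summits of 34.8, 48.9, 39.3 and 19.4 stood at 44730174, 44731151, 44733389 and 44733882. Relative to the first start they lay 600 bp upstream and 377, 2615 and 3108 bp downstream. The highest, of score 48.9, fell between the starts, 120 bp before the second and thus within the stretch shown above. No summit was called in the rest of this gene of 190870 bp. No other protein-coding gene lay within 10000 bp of the 4 summits.

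The RING proteins Ring1 and Rnf2 are the alternative ubiquitin ligases of PRC1, and their genes differed in layout. Ring1 (chromosome 17, 34020792 to 34024680, minus strand), a gene of only 3889 bp, had the highest score of the 10 genes, 95.2 at 34024840, rank 1612. This summit lay 160 bp before the start, outside the gene, within the bases shown above. It was also 143 bp from the record of Mir219a-1 and 172 bp from that of Mir219c, both microRNA genes. Ring1 and both microRNA genes are thus in its reach. Rnf2, the main ligase in embryonic stem cells (chromosome 1, 151469398 to 151500991, minus strand), had a single summit of 45.2 at 151500588, 403 bp into the gene. The other 2 summits in reach of Ring1, 71.7 and 89.9, lay 3171 and 7266 bp before its start. The summit of 71.7 was 204 bp into H2-Ke6, the gene of a hydroxysteroid dehydrogenase, and that of 89.9 was 134 bp into Rxrb, the retinoid X receptor beta gene, and 256 bp before Slc39a7, a zinc transporter gene.

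Bmi1, the PCGF partner that stimulates the ligase (chromosome 2, 18677018 to 18686629, plus strand), had the most summits in reach, 6. Those at its own start scored 12.3, 49.8 and 28.5, at 641 bp before it and at 284 and 811 bp into the gene. The highest score in reach, 58.3, lay in the neighbouring Commd3, a gene of a COMM domain protein. It was 167 bp into that gene and 4416 bp before the start of Bmi1. The same summit was 198 bp from the long noncoding RNA gene Gm33355, so it cannot be given to Commd3 alone. The summit of 12.3 was 146 bp past the end of Commd3. The remaining summits scored 6.35 and 3.80, ranks 13838 and 14720, and lay 3711 and 7601 bp beyond the gene's end, at the gene Gm46725 and at Spag6, of sperm flagella. By its own summits, then, Bmi1 stood at 49.8, close to the 49.0 of Eed and the 48.9 of Jarid2.

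**Figure D2:**
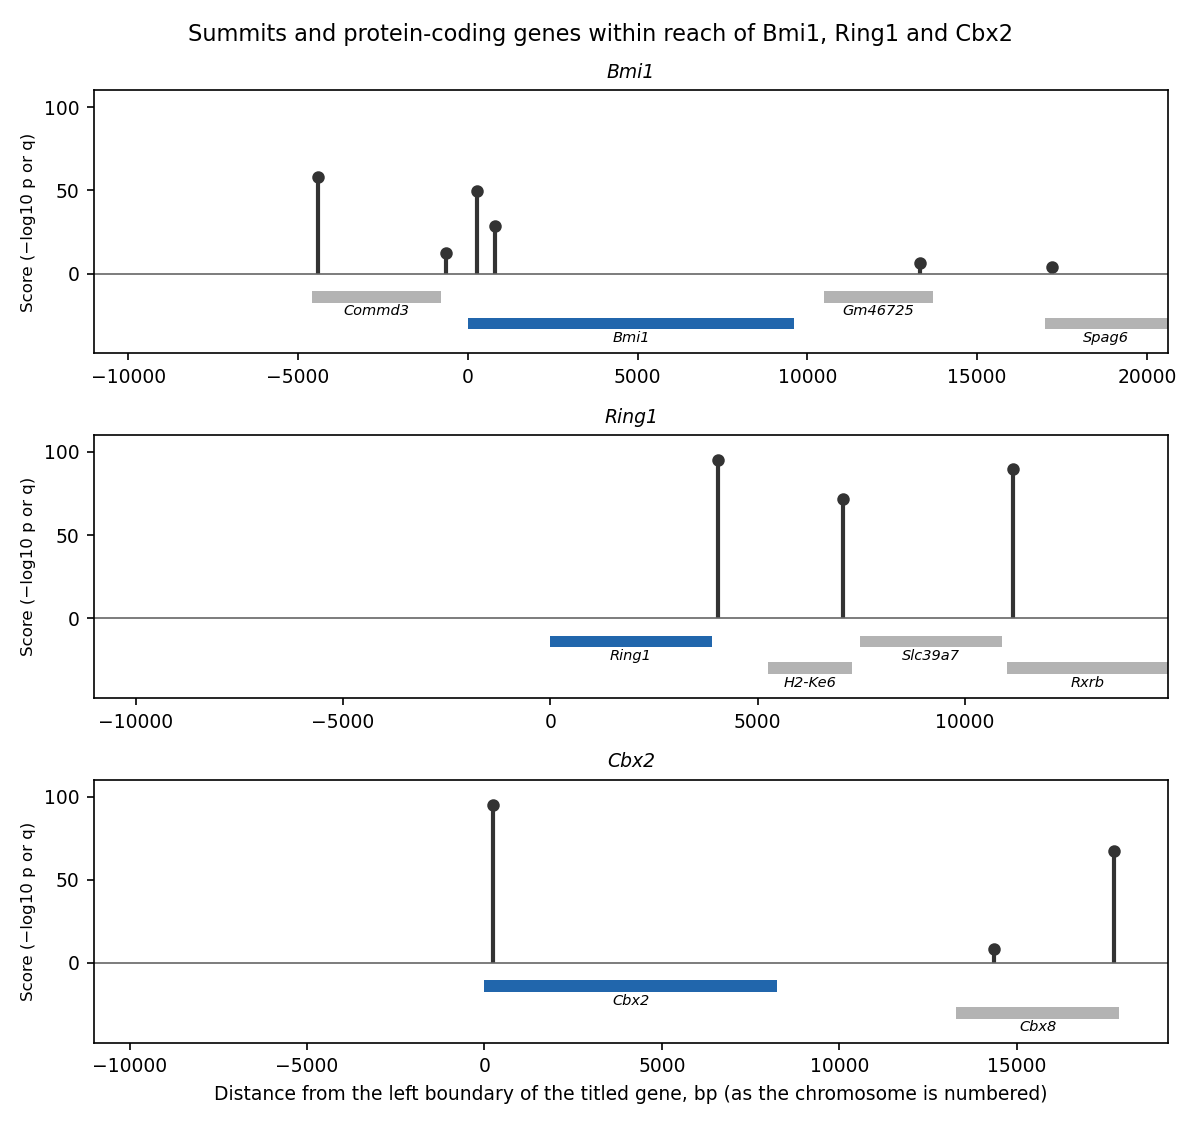
Summits (stems, height is the score) and protein-coding genes (bars, the titled gene in blue, others in grey) in reach of Bmi1, Ring1 and Cbx2, with x in bp from the left boundary of the titled gene as the chromosome is numbered. The higher summits away from the titled genes stand at the ends of Commd3, H2-Ke6, Rxrb and Cbx8.

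The Cbx genes, which encode chromodomain readers of the methylated H3 tail, gave both the second-highest and the lowest value. Cbx2 (chromosome 11, 119023019 to 119031275) had 94.9 at 119023264, 245 bp inside its left boundary, rank 1629. The long noncoding RNA gene Gm35829 overlaps this position, its record ending 575 bp farther on. The other summits in reach of Cbx2 were 8.32 and 67.5, at 6093 and 9494 bp beyond its right boundary, and both lay inside its paralog Cbx8, the second 144 bp into that gene. A further summit of 62.7, at 10126 bp from Cbx2, lay just beyond the reach. Cbx7 (chromosome 15, 79915804 to 79971143, minus strand) had 13.9 at 79932556, 90 bp into the gene from its listed start, and 19.5 at 79927873, 4773 bp into it. Both were below the list's median of 33.3, at ranks 11133 and 9801. The record of Cbx7 runs on past its listed start, and no summit was called in that stretch or in the 10000 bp beyond it. Cbx7 was thus the lowest of the 10 genes by its highest summit, and the summit at its start scored below the lower quartile of 24.8 for all protein-coding genes with a summit near a start, whose median was 50.1. For the 9 Polycomb genes the median of that start score was 49.8.

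The promoters of the Polycomb genes were rich in CpG. In windows of 300 bases (250 before the start and 50 from it), the observed over expected CpG ratio was 0.882 at Ezh1, 0.999 at Ezh2, 0.758 at Eed and 1.09 at Suz12. It was 0.810 and 0.831 at the starts of Jarid2, 0.910 at Ring1, 0.761 at Rnf2, 0.708 at Bmi1 and 0.992 at Cbx7. All 10 promoters of the 9 genes were thus at or above 0.6, a line often used for CpG islands, against 47.7% of 21263 protein-coding promoters and 83.3% of the 10715 with a summit within 1000 bp. The G and C content ran from 54.7% at Eed to 74.0% at Ring1, against medians of 56.3% for all promoters and 63.0% for those with a summit. Cbx7, with the lowest score, had nearly the same ratio as Ezh2, and Ring1, with the highest score, lay between Ezh1 and Cbx7 in ratio.

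**Figure D3:**
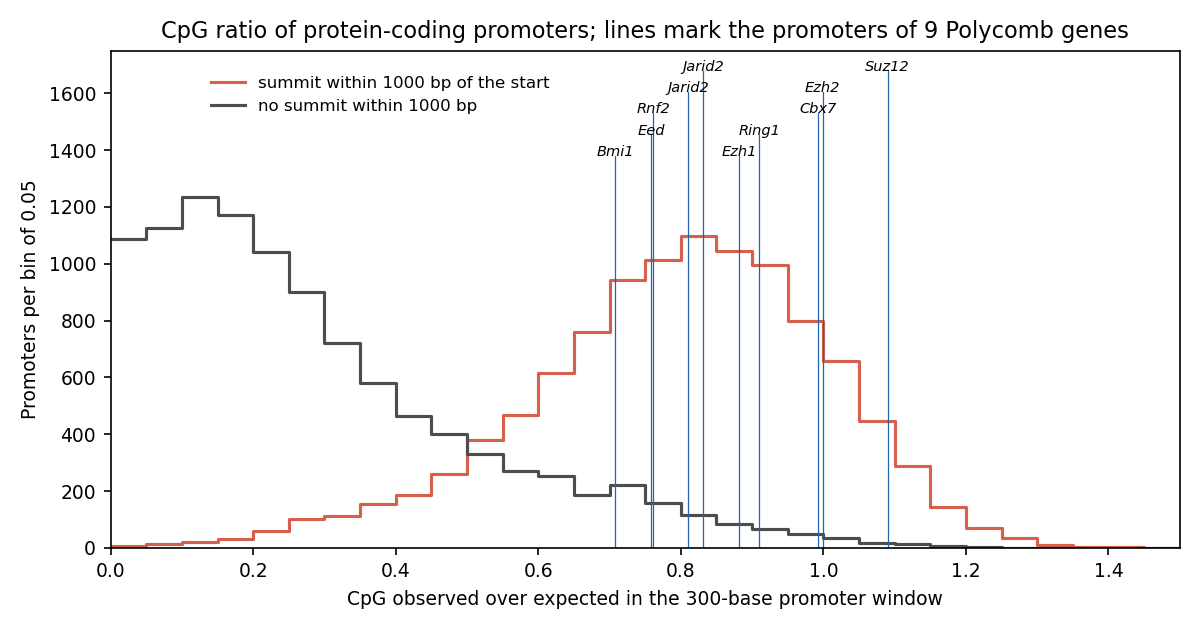
Number of protein-coding promoters (y) by their observed over expected CpG ratio (x, bins of 0.05), for promoters with (red) and without (dark grey) a summit within 1000 bp of the start. Blue lines mark the 10 promoters of 9 Polycomb genes, which run from 0.708 at Bmi1 to 1.09 at Suz12.

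Exact matches to 16 short motifs were counted in the same windows on both strands. The GC box GGGCGG, bound by Sp and Klf factors, was found at 6 of the 9 genes (Bmi1, Cbx7, Jarid2, Ring1, Rnf2 and Suz12). It was in 7 of their 10 promoters, against 46.2% of all promoters and 71.4% of those with a summit. It is absent as written from the windows of Ezh1, Ezh2 and Eed. The box CCAAT was found at 5 genes (Cbx7, Eed, Ezh2, Jarid2 and Suz12), and Ezh2 held 3 copies. CCAAT was in 6 of the 10 promoters, against 38.2% of all promoters. The E2F motif TTTGGCGC, present in 0.635% of promoters, lay 3 bases after the start of Ezh2, and the E2F form TTTCCCGC (1.41%) lay 219 bases before that of Suz12. E2F factors drive genes of dividing cells. The third form, TTTCGCGC (0.451%), was in none of the 9. Ring1 held the short form of the cyclic AMP element, TGACGT (8.49%), at 27 bases before and 14 after its start, beside a GC box at 33 before. Bmi1 held the E-box CACGTG (7.84%) bound by Myc, and Ezh1 and Cbx7 the core TGCGCA of the NRF1 motif (9.74%). The short ETS core CCGGAA (18.7%) was at Jarid2 and Ring1, TGGGAA (24.5%) at Bmi1 and Jarid2, and the TATA box TATAAA (12.6%) at the second start of Jarid2 alone, 31 bases before it. No window of the 9 genes held GCGCATGC of NRF1 (3.52%), TGACGTCA of the full cyclic AMP element (2.23%), AAGATGGCG of YY1 (1.83%), CCGGAAGT of ETS factors (5.15%) or TCTCGCGA of ZBTB33 (1.41%). TGACGT is part of TGACGTCA, and CCGGAA of CCGGAAGT. Apart from the GC box, the shares above are of all promoters. Among promoters with a summit, the share was 1.01% for TTTGGCGC, 2.33% for TTTCCCGC, 12.7% for TGACGT and 10.9% for CACGTG. It was 15.7% for TGCGCA and 30.5% for CCGGAA. For CCAAT (37.5%), TGGGAA (21.4%) and TATAAA (5.37%) it was lower than in all promoters. A match describes letters only and shows no binding.

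Most other Polycomb genes also had summits. Of 47 other genes of Polycomb complexes, 45 had a summit in reach, with a median highest score of 58.9 and a range of 7.25 to 178, and 41 were at or above the list's median, against 60.1% and 41.9% of all protein-coding genes. Of the 47, 32 had 2 or more summits, against 28.6%. Of the 40 with a listed start, 37 had a summit within 1000 bp of it and 14 had summits on both sides, against 52.2% and 8.48%. Whether these shares differ from those of the 10 genes was not tested. The histone-binding genes Rbbp4 and Rbbp7, whose proteins PRC2 shares with the Sin3 complex, had 91.9 and 42.4. All 7 other accessory genes of PRC2 had one, led by Lcor with 91.8 and Aebp2 with 83.5, while Phf19 had 7.25. All 5 other PCGF genes had one, with 88.3 at Pcgf2, the closest relative of Bmi1, and 50.4 at Pcgf1.

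Among canonical PRC1 genes, 6 of 7 others had a summit in reach. The share to set beside this and the next counts is 60.1% of all protein-coding genes. The highest of the whole set, 178 at rank 128, was at Phc2, of a polyhomeotic protein that joins PRC1 into larger assemblies, 211 bp downstream of a start inside the gene. Phc3, of the same family, had 74.9, and Scml2 had no summit. All 13 genes of variant PRC1 had one, with 148 at Fbrs and 125 at Dcaf7, and Bcor, a corepressor gene, had 14 summits of which the highest was 33.6. All 10 genes of the deubiquitinase complex PR-DUB had one, with 126 at Asxl1. The 150 counted for Foxk1 lay 2175 bp outside that gene, whose own summit near its left boundary scored 91.9. Of the 3 PhoRC genes, Yy1, a DNA-binding factor, had 141, Sfmbt1 had 49.4 from a summit 3063 bp outside the gene, and Sfmbt2 had none. For PhoRC, 2 of 3 is near the share of all protein-coding genes. The 10 core genes thus held neither the highest nor the lowest scores of Polycomb genes.

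**Figure D4:**
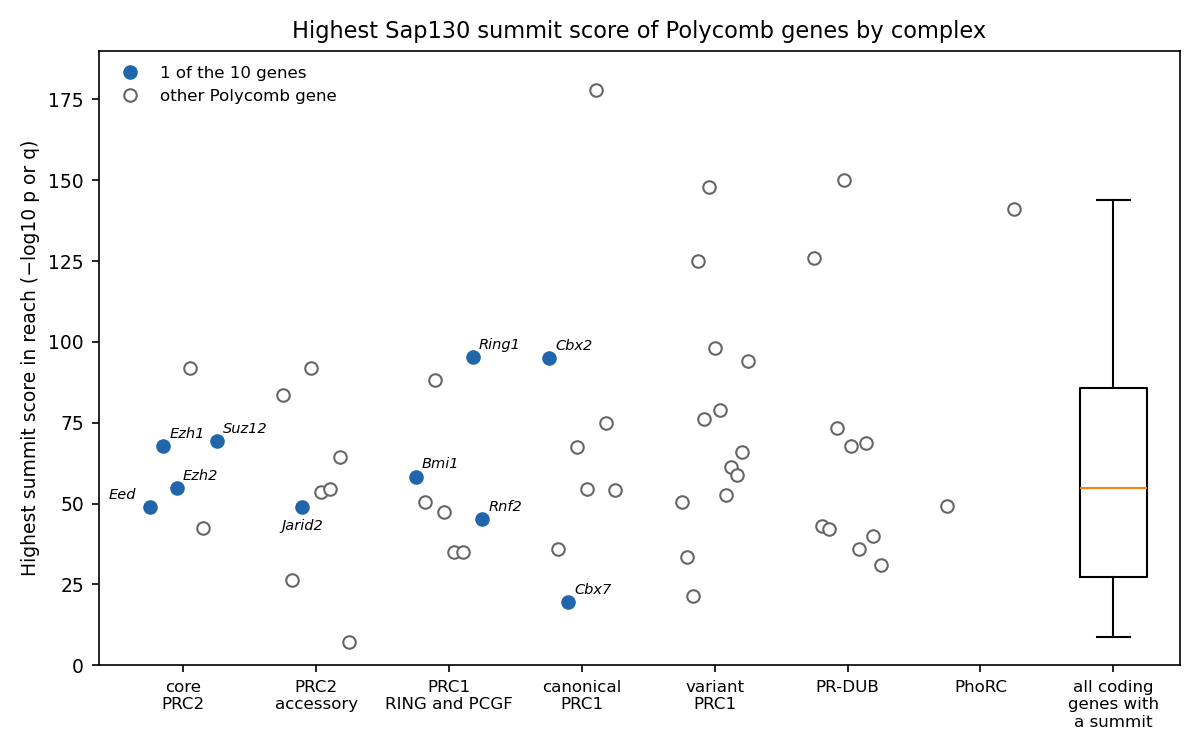
Highest summit score in reach (y, −log10 p or q) for the 10 genes (blue) and 45 other Polycomb genes (open), by complex, beside a box plot of all 13080 protein-coding genes with a summit in reach (box, quartiles with the median; whiskers, 5th and 95th percentiles). The 10 genes run from 19.5 at Cbx7 to 95.2 at Ring1; Scml2 and Sfmbt2 had no summit and are not drawn.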

How the data were processed

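Per the submitters' processing notes, the authors used Bowtie 1.1.2, an aligner, and MACS2 2.1.0.20140616, a peak caller, with the mouse build GRCm38 (mm10). For settings, duplicate handling and the threshold, the sources used here give nothing. The authors deposited 14886 entries of 1 base, taken as peak summits, each with a score read as a −log10 p-value or q-value of ChIP over input. Which of these it is, and the read depth, could not be settled from the values. Peaks rest on 1 ChIP and 1 input library.

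Genes were taken from a RefSeq table (GRCm38.p6). Of 49997 genes, 394 off the named chromosomes, or starting in the first 3 Mb of one other than Y, were left out. Summits were counted inside a gene or within 10000 bp, and around starts (within 1000 bp) read from a RefSeq promoter table. The highest score stood for a gene. All protein-coding genes were counted the same way, and no test was made. The counting was tested on simulated data. The genes, gene lists and motifs were chosen with earlier results of these data known. Named in full were the 10 genes, and of other Polycomb genes the 2 highest per role and those without a summit. Some genes of the lists are not reported here. Phf19, Bcor and the neighbouring genes were named after their values were seen. Alternatives changed the reach, the score minimum, shared summits and merging. Python 3.11.15, numpy 2.4.6, pandas 2.3.3 and matplotlib 3.10.9 were used.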

Additional observations from a re-analysis of the deposited data

How the results depend on the processing

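All 10 Polycomb genes kept a summit with 5000 or 1000 bp around the gene and with summits within 500 bp merged, when 57.4%, 55.0% and 60.0% of all protein-coding genes had one. Inside the gene only, 9 had one (all but Ring1, against 50.9%), and 8 had one when summits in reach of several protein-coding genes were left out (all but Bmi1 and Ring1, against 28.4%). Among the summits at or above the median score, 9 had one (all but Cbx7, against 41.9%). Among the 3728 summits at or above the upper quartile of 65.2, 4 had one (Ezh1, Suz12, Ring1 and Cbx2, against 24.3%). Of the other Polycomb genes, 20 in place of 45 had one at that score minimum. The other Polycomb genes had 33 to 45 under the remaining settings. The median highest score of the 10 genes was 52.2 with 1000 bp around the gene and 49.4 for the summit nearest to the start, or at Cbx2, which has no listed start, to a gene boundary, in place of 56.5. With that nearest summit, the score was 39.8 in place of 69.3 at Suz12, 49.8 in place of 58.3 at Bmi1 and 13.9 in place of 19.5 at Cbx7. At the other 7 genes, Cbx2 by its boundary among them, the highest summit was also the nearest. No paired analysis was possible because there was 1 library of each kind, and none could be left out. The unknown depth limits how far a missing summit can be read as missing binding.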

Other observations

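Of 3 genes of the histone H3 demethylase family that removes the PRC2 mark, 2 had a summit in reach, a share near the 60.1% of all protein-coding genes. Kdm6b had 6 summits in reach with a highest score of 68.4, inside the gene. Kdm6a had 2 with a highest score of 44.6, 225 bp downstream of its start. Uty, which lies on chromosome Y, had none, and the sex of the embryos was not taken into account.

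A list of 4 genes described in the literature as de-repressed in mouse hearts without Ezh2 had low scores. All 4 had a summit in reach, against 60.1% of all protein-coding genes. The median of their highest scores was 13.9, against 54.7 for all protein-coding genes with a summit in reach. Cdkn2a, of cell cycle inhibitors, had 31.6 at 363 bp before a start, and its neighbour Cdkn2b had 11.7. Isl1, a factor of cardiac progenitors, had 16.1 and 4.68 on the 2 sides of its start. Pax6, a factor of eye and brain, had 1 summit of 3.88. All 4 were below the list's median of 33.3, which the highest score in reach met or passed in 41.9% of all protein-coding genes. No test was made of this difference, and the list was chosen with earlier results of these data known.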
